A study of Mus musculus with 4 samples.

Results

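The Dlk1-Meg3 domain is a cluster of imprinted genes on distal mouse chromosome 12, in which some genes are read from the paternal copy of the chromosome and others from the maternal copy. The domain was described here through 5 genes of 54532 in the count files: Dlk1 and Rtl1, which are paternally expressed, and Meg3, Rian and Mirg, which are maternally expressed. They were taken by name, as the listed imprinted genes of the cluster that all 4 count files hold, and all 5 passed the filter on low counts, Mirg through its reads in WT alone, Meg3, Rian and Rtl1 through WT and PRDX1MT. The counts do not separate the parental copies, so the allele given for each gene is background knowledge and was not measured.

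RNA was sequenced in 4 libraries of C3H10T1/2, an established line of mouse mesenchymal stem cells that can be turned towards fat, bone, cartilage and muscle. The double knockout group (DKO) had 2 libraries, from clones 1 and 5, which are labelled as knockouts of both Dnmt3a and Dnmt3b, the enzymes that place new DNA methylation. The group called PRDX1MT had 1 library, with a CRISPR edit where intron 5 of Prdx1 meets the next exon (the splice acceptor), and another field calls it a Prdx1 knockout. Its library name carries a clone number, so it stands for a single clone. The wild type (WT) had 1 library of unedited, parental cells. Whether the Prdx1 edit is also present in the DKO clones, and how the clones were derived, is not stated in the labels. The series was made to study how a promoter is silenced when transcription of a neighbouring gene reads through it, at Mmachc next to Prdx1, and the imprinted domain is not among its stated subjects. The p-values below rest on the spread between the 2 DKO clones alone, and for each gene that spread is drawn largely from the other genes tested. Intervals given for single libraries cover counting error only.

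In an imprinted domain the copy inherited from a given parent is silent, and the choice is carried by DNA methylation that is laid down in the germ cells and kept through later cell divisions. In this domain the mark lies between Dlk1 and Meg3 and is methylated on the paternal copy. On the unmethylated maternal copy, Meg3 and the genes that follow it on the plus strand are transcribed as a chain of non-coding RNAs that contain many small nucleolar RNAs (snoRNAs) and microRNAs (miRNAs). Dlk1 encodes a membrane protein with EGF-like repeats that restrains the formation of fat cells and is related to the Notch ligands, and Rtl1 encodes a protein that derives from a retrotransposon and is needed in the placenta.

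In genome build GRCm38/mm10, Dlk1 (ENSMUSG00000040856) spans chr12:109452823-109463336 on the plus strand. Meg3 (ENSMUSG00000021268) starts 77.7 kb beyond its end, at chr12:109541001-109571726, also on the plus strand. Rtl1 (ENSMUSG00000085925, chr12:109589193-109600330) is the only one of the 5 on the minus strand. Rian (ENSMUSG00000097451, chr12:109603940-109661716) and Mirg (ENSMUSG00000097391, chr12:109729764-109749460) lie on the plus strand, and Meg3 to the end of Mirg covers 208.5 kb. Rtl1 lies under a maternally expressed antisense transcript. The strand setting of the counting is not given in the sources used here, so reads of Rtl1 and of its antisense partner cannot be told apart.

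The start regions of the leading genes are shown because the windows at the listed starts of the maternal chain differ in sequence. Whether Rian and Mirg have promoters of their own was not tested. They come from the RefSeq promoter table (GRCm38.p6), which holds 250 bases before and 50 bases after a start site for Dlk1, Meg3, Rian and Mirg. Rtl1 is not in that table. Capitals mark motif matches, of which 4 were searched on both strands: the cAMP response element TGACGTCA, the CCAAT box, the TATA box TATAAA, and TGCCGC, the core bound by ZFP57, a zinc-finger protein that protects imprints. The motifs were chosen after the sequences had been seen. For Dlk1 only the bases before the start site are printed.

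Meg3, chr12:109540746-109541045, plus strand: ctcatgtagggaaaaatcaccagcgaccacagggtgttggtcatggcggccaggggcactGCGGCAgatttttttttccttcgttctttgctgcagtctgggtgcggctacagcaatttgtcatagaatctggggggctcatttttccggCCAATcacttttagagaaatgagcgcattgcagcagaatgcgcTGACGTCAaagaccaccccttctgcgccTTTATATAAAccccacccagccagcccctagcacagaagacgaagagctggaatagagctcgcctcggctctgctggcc
Rian, chr12:109603695-109603994, plus strand: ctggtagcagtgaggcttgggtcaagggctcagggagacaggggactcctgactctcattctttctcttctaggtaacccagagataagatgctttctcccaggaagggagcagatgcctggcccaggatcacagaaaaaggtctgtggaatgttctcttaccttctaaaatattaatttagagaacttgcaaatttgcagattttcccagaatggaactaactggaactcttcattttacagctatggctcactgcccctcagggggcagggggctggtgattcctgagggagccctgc
Dlk1, chr12:109452573-109452822, plus strand: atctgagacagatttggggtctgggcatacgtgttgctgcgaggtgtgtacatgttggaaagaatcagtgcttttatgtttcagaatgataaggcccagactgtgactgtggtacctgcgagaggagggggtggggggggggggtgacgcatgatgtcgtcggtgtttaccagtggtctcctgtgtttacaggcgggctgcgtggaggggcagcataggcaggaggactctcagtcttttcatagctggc

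The Meg3 window held 13 CpG dinucleotides, and 37.9% of 32851 promoter windows held at least as many. Counted to the first base of each match, the cAMP response element lay at position -57 from the start site, the CCAAT box at -100 and the ZFP57 core, read on the other strand, at -190. TATAAA occurs on both strands, and these matches overlap as TTTATATAAA, which begins at -29. Across all windows the shares with a match were 1.79% for the cAMP response element, 37.4% for CCAAT, 13.6% for TATAAA and 11.6% for TGCCGC, and 21 windows (0.0639%) held the first 3 together. The Rian window held 0 CpG and no match, the Dlk1 window 9 CpG and no match, and the Mirg window 10 CpG and 1 CCAAT box. The RefSeq start of Mirg lies 5217 bases from the start in the GENCODE annotation. A match describes letters in a window and is not evidence of a bound site.

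Library totals ran between 27570136 and 37685798 counts, with reads at 25191 to 26537 genes. Levels below are CPM, counts scaled to library size with TMM factors, and 3 reads are worth 0.0729 to 0.121 CPM. Of the targeted genes, Prdx1 was at 392 and 332 CPM in DKO clones 1 and 5, 31.1 CPM in PRDX1MT and 399 CPM in WT. Dnmt3a was at 31.3 and 25.9 CPM in DKO clones 1 and 5, 80.8 CPM in PRDX1MT and 43.7 CPM in WT, and Dnmt3b was at 2.83, 2.03, 3.74 and 3.28 CPM in the same order. Counts over a whole gene do not show whether an edited transcript is functional. Of 12 mesenchymal markers, 11 had at least 20 reads in every library, and their summed level was 23280 and 41400 CPM in DKO clones 1 and 5, 35030 CPM in PRDX1MT and 23840 CPM in WT. Immune, endothelial, epithelial and muscle markers summed to at most 8.60 CPM in any library, with Adgre1, Epcam and Myod1 at 0 in all 4. Fat-cell markers summed to 62.2 and 48.4 CPM in DKO clones 1 and 5, 76.6 CPM in PRDX1MT and 51.1 CPM in WT, and neural markers, mostly Map2, to 72.9, 169.6, 207.6 and 94.2 CPM. A single marker passed the test in DKO against WT, the mesenchymal surface protein Thy1, with 27 and 38 reads in the clones, 22 in PRDX1MT and 1192 in WT (log2 ratio -4.76, SE 0.63, adjusted p = 0.0321 by edgeR). Thy1 was thus low in the 3 edited libraries, as were Meg3, Rian and Mirg below, and its part in their values was not tested.

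Meg3, a long non-coding RNA and the first gene of the maternal chain, had no read in either DKO clone. It had 0 reads in clone 1 and 0 in clone 5, against 4230 reads (103 CPM, 99.7 to 106) in WT. With both clones together set at 3 counts, Meg3 was at least 2165-fold lower in DKO. The edgeR quasi-likelihood test gave a log2 ratio of -14.70 (SE 0.87, adjusted p = 0.00875 with Benjamini-Hochberg adjustment over 19446 genes). The fitted ratio depends on a small added count and is not a bound. Its SE was worked back from the F statistic of the test and does not measure a spread between clones at 0 reads. Both clones stood below WT by more than the counting error. In RNA from whole cultures, fewer expressing cells and less RNA per cell cannot be told apart.

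Rian, the host of a large snoRNA cluster, had 3 reads (0.0841 CPM) in clone 1 and 0 in clone 5, against 3741 reads (90.9 CPM, 88.0 to 93.8) in WT. Pooled over the clones, it was 1915-fold lower (655 to 9290), with a log2 ratio of -10.82 (SE 0.86, adjusted p = 0.0107 by edgeR). Mirg, which contains many miRNAs, had 4 reads (0.112 CPM) in clone 1 and 0 in clone 5, against 414 reads (10.1 CPM, 9.11 to 11.1) in WT. That was 159-fold lower (61.6 to 586), with a log2 ratio of -7.28 (SE 1.11, adjusted p = 0.0489 by edgeR). The clones thus kept 7 reads of the 3 maternal genes in clone 1 and 0 in clone 5, against 8385 reads in WT.

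Rtl1, listed as paternally expressed, was as low as its maternal neighbours in reads but missed the threshold. Its reads cannot be told apart from those of its maternal antisense partner, so the fall is not assigned to either strand. It had 1 read (0.0280 CPM) in clone 1 and 4 reads (0.145 CPM) in clone 5, against 260 reads (6.31 CPM, 5.57 to 7.13) in WT. The pooled ratio was 79.9-fold lower (33.8 to 248), and the log2 ratio of -6.20 had an SE of 0.99 and an adjusted p of 0.0593 by edgeR. Both clones lay below the WT interval.

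Dlk1 did not follow the other members, since the clones differed. It had 55 reads (1.54 CPM, 1.16 to 2.01) in clone 1 and 0 reads (3 reads would be 0.109 CPM) in clone 5, against 64 reads (1.55 CPM, 1.20 to 1.99) in WT. The ratio of clone 1 to WT was 0.992 (0.679 to 1.45), while clone 5, set at 3 counts, was 14.3-fold below WT (ratio interval up to 0.0887). Dlk1 averaged 0.771 ± 1.09 CPM in DKO (SD, n = 2), and its log2 ratio to WT was -0.98 (SE 1.57, adjusted p = 1.00 by edgeR).

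Of the 5 genes, Meg3 and Rian passed the test as lower in DKO than in WT, and none passed as higher. Mirg was called too, which makes 3, where 4 had an unadjusted p under 0.05 and DESeq2 also called 4. Over all genes tested, 0.453% were called lower and 0.0154% higher. Because Mirg entered the fit only through WT, the library in which it was highest, its call is given as a description and is not set against these shares. The call for Mirg was lost with median-of-ratios scaling (adjusted p = 0.0592 by edgeR), and Rtl1 was called when PRDX1MT was left out of the fit (adjusted p = 0.0465 by edgeR). Leaving out a clone could only be tested with WT and PRDX1MT joined, and then 0 members passed (5 without clone 1 and 4 without clone 5 at an unadjusted p under 0.05), with an adjusted p for Meg3 of 0.104 without clone 1 and 0.0693 without clone 5 by edgeR.

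**Figure D1:**
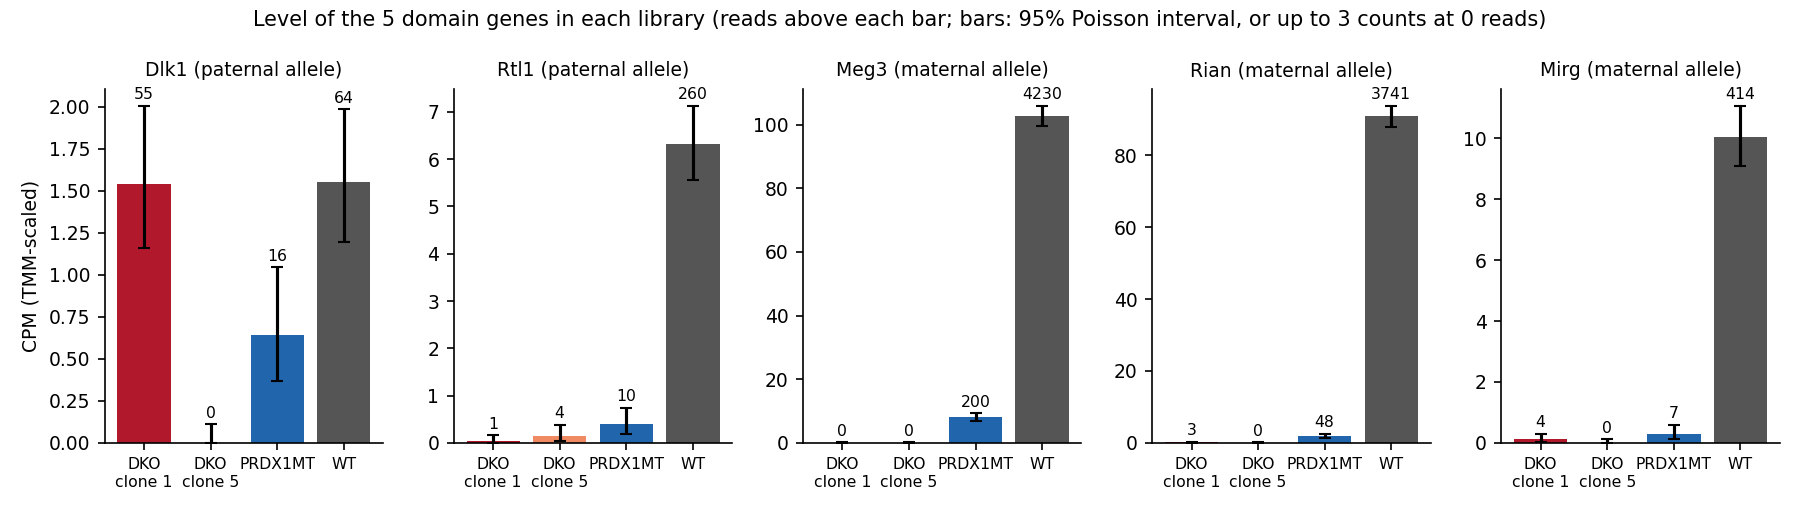
Level of the 5 domain genes in each library in CPM (TMM-scaled, linear axis from 0), with reads above each bar and 95% Poisson intervals as error bars, which run up to 3 counts where a library had 0 reads. Meg3, Rian, Mirg and Rtl1 are highest in WT, with 4230, 3741, 414 and 260 reads there, whereas Dlk1 has 55 reads in DKO clone 1 and 64 in WT.

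Set against PRDX1MT, in which the domain was itself low, the ratios were smaller. Meg3 had 0 reads in both DKO clones, against 200 reads (8.04 CPM, 6.96 to 9.23) in PRDX1MT. With DKO set at 3 counts it was 169-fold lower there (ratio interval up to 0.00733), with a log2 ratio of -11.02 (SE 0.89, adjusted p = 0.0243 by edgeR). Rian had 3 and 0 reads in the clones and 48 reads (1.93 CPM, 1.42 to 2.56) in PRDX1MT, a ratio 40.7-fold lower (13.1 to 204), at a log2 ratio of -5.26 (SE 0.85, adjusted p = 0.0843 by edgeR). Both clones were below PRDX1MT for both genes.

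The remaining members had few reads on either side. Rtl1 had 1 and 4 reads in the clones, against 10 reads in PRDX1MT (5.08-fold lower, 1.58 to 18.9), and Mirg had 4 and 0 reads, against 7 reads in PRDX1MT (4.45-fold lower, 1.13 to 20.7). Dlk1 had 55 and 0 reads in the clones and 16 reads in PRDX1MT, which thus lay between them, and the pooled ratio was 1.35 (0.764 to 2.53). All 3 had an adjusted p of 1.0 by edgeR. Meg3 was the only one of the 5 called lower, beside 0.195% of all genes called lower and 0.0103% called higher. It was no longer called when WT was left out of the fit (adjusted p = 0.0800 by edgeR). This comparison and the one with WT share the DKO libraries.

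The PRDX1MT library, whose edit lies on chromosome 4, was low for every maternal gene of the domain and for Rtl1. With 1 library on each side there was no test, and a gene was said to pass a size rule when its log2 CPM difference was at least 1 in size, the pair summed to at least 100 reads and the counting interval of the ratio left out equality. Meg3 was at 8.04 CPM in PRDX1MT and 103 CPM in WT, 12.8-fold lower (11.1 to 14.8). Rian was at 1.93 CPM in PRDX1MT and 90.9 CPM in WT, 47.1-fold lower (35.5 to 64.0). These 2 differed beyond counting error in how much was left, which was 7.82% of the WT level for Meg3 (6.75 to 9.02) and 2.12% for Rian (1.56 to 2.82).

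Mirg had 7 reads (0.281 CPM) in PRDX1MT and 414 reads in WT, with 2.80% of the WT level left (1.12 to 5.82). Rtl1 had 10 reads (0.402 CPM) in PRDX1MT and 260 reads in WT, with 6.36% left (3.02 to 11.9), an interval that overlapped those of Meg3 and Mirg. Dlk1 had 16 reads (0.643 CPM, 0.367 to 1.04) in PRDX1MT and 64 reads in WT, with 41.4% left (22.3 to 72.4). The share left was thus larger for Dlk1 than for the other 4 genes beyond counting error. In all, 4 of the 5 members passed the size rule as lower, with log2 differences of -3.67 for Meg3, -3.78 for Rtl1, -4.88 for Mirg and -5.51 for Rian. Among the 12693 genes with enough reads, 7.57% were lower and 7.26% higher by the same rule. Dlk1, at -1.20, had 80 reads over both libraries and so could not enter it, and with a minimum of 20 reads it passed as lower.

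**Figure D2:**
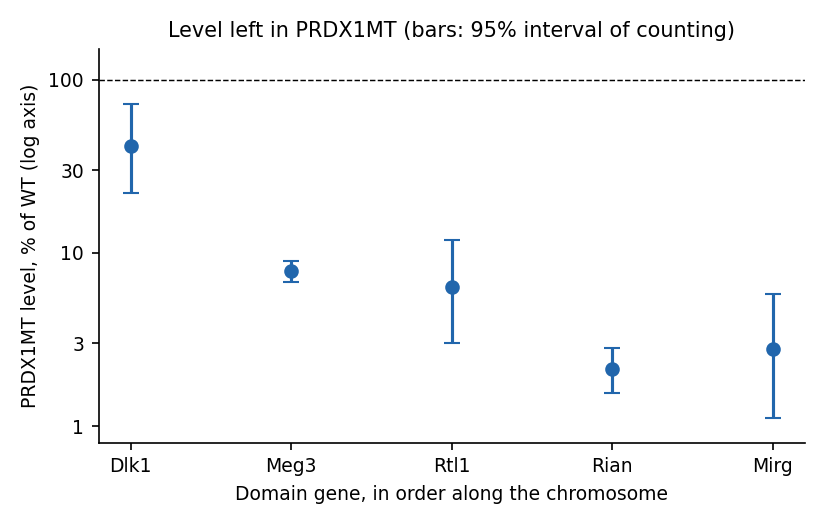
Level left in PRDX1MT as a percentage of the WT level (log axis) for the 5 domain genes in their order along the chromosome, with 95% intervals of counting as bars and a dashed line at equality. Dlk1 keeps 41.4%, Meg3 7.82% and Rtl1 6.36%, and Rian and Mirg lie lowest at 2.12% and 2.80%.

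The make-up of the maternal chain therefore differed between the libraries that expressed it. Of the reads of Meg3, Rian and Mirg together, Meg3 took 78.4% in PRDX1MT (72.9 to 83.3, exact binomial interval) and 50.5% in WT (49.4 to 51.5). Rian took 18.8% in PRDX1MT (14.2 to 24.2) and 44.6% in WT (43.6 to 45.7). Mirg took 2.75% in PRDX1MT (1.11 to 5.57) and 4.94% in WT (4.48 to 5.42), where the intervals overlapped.

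Per length of exon, the order of the members also differed between libraries. In PRDX1MT, Meg3 was highest at 0.444 RPKM (reads scaled to exon length and library size, 0.385 to 0.510), and Dlk1 (0.114), Rian (0.106), Rtl1 (0.0632) and Mirg (0.0386) followed, each overlapping the next in its counting interval. In WT, Meg3 was highest at 5.68 RPKM (5.51 to 5.85), followed by Rian at 4.98 (4.82 to 5.14), Mirg at 1.38 (1.25 to 1.52), Rtl1 at 0.993 (0.876 to 1.12) and Dlk1 at 0.275 (0.212 to 0.351), and no neighbours overlapped. In DKO clone 1, Dlk1 was highest at 0.273 RPKM (0.205 to 0.355), and the other 4 were at or under 0.0154 RPKM. By RPKM, Meg3 stood above 23.4% of 19439 tested genes in PRDX1MT and above 67.3% in WT, and Dlk1 stood above 9.06% in PRDX1MT and above 16.9% in WT.

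The 2 DKO clones differed from each other at Dlk1. Clone 5 had 0 reads and clone 1 had 55, at least 14.2-fold lower in clone 5, a comparison of 2 libraries with no replicate check. The other members had 5 reads or fewer over both clones. None of the 5 members had the 100 reads that the size rule asks for, whereas 10.7% of 12317 genes were lower and 7.63% higher in clone 5 by that rule. With a minimum of 20 reads, Dlk1 passed it.

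The low counts ran along the whole maternal chain, beyond the 3 named genes. From Meg3 to the end of Mirg the annotation has 91 plus-strand genes, which together held 8 reads in DKO clone 1, 0 in clone 5, 272 in PRDX1MT and 9060 in WT. Reads were found at 3 of these genes in clone 1, at 0 in clone 5, at 11 in PRDX1MT and at 56 in WT. Without Meg3, Rian and Mirg, the other 88 genes held 1, 0, 17 and 675 reads in the same order. In PRDX1MT these 88 were 24.0-fold lower than in WT, beside 19.9-fold for the 3 named genes.

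Among the genes in between, 3 transcripts without a descriptive name had at least 20 reads in a library. Gm37899 (ENSMUSG00000102657, chr12:109668869-109677585) had 0 reads in both DKO clones, 7 in PRDX1MT and 282 (6.85 CPM, 6.07 to 7.70) in WT. With DKO set at 3 counts, it fell 144-fold against WT (ratio interval up to 0.00857). The log2 ratio was -10.79 (SE 1.28, adjusted p = 0.0321 by edgeR). Gm37899 entered the fit through WT alone, as Mirg did, and was 24.4-fold lower in PRDX1MT than in WT (11.7 to 61.1). B830012L14Rik had 1, 0, 2 and 74 reads in clone 1, clone 5, PRDX1MT and WT (adjusted p = 0.136 by edgeR for DKO against WT). Gm26945 had 61 reads in WT and 0 in the other 3 libraries (adjusted p = 0.178 by edgeR for DKO against WT). No function is given here for these transcripts.

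**Figure D3:**
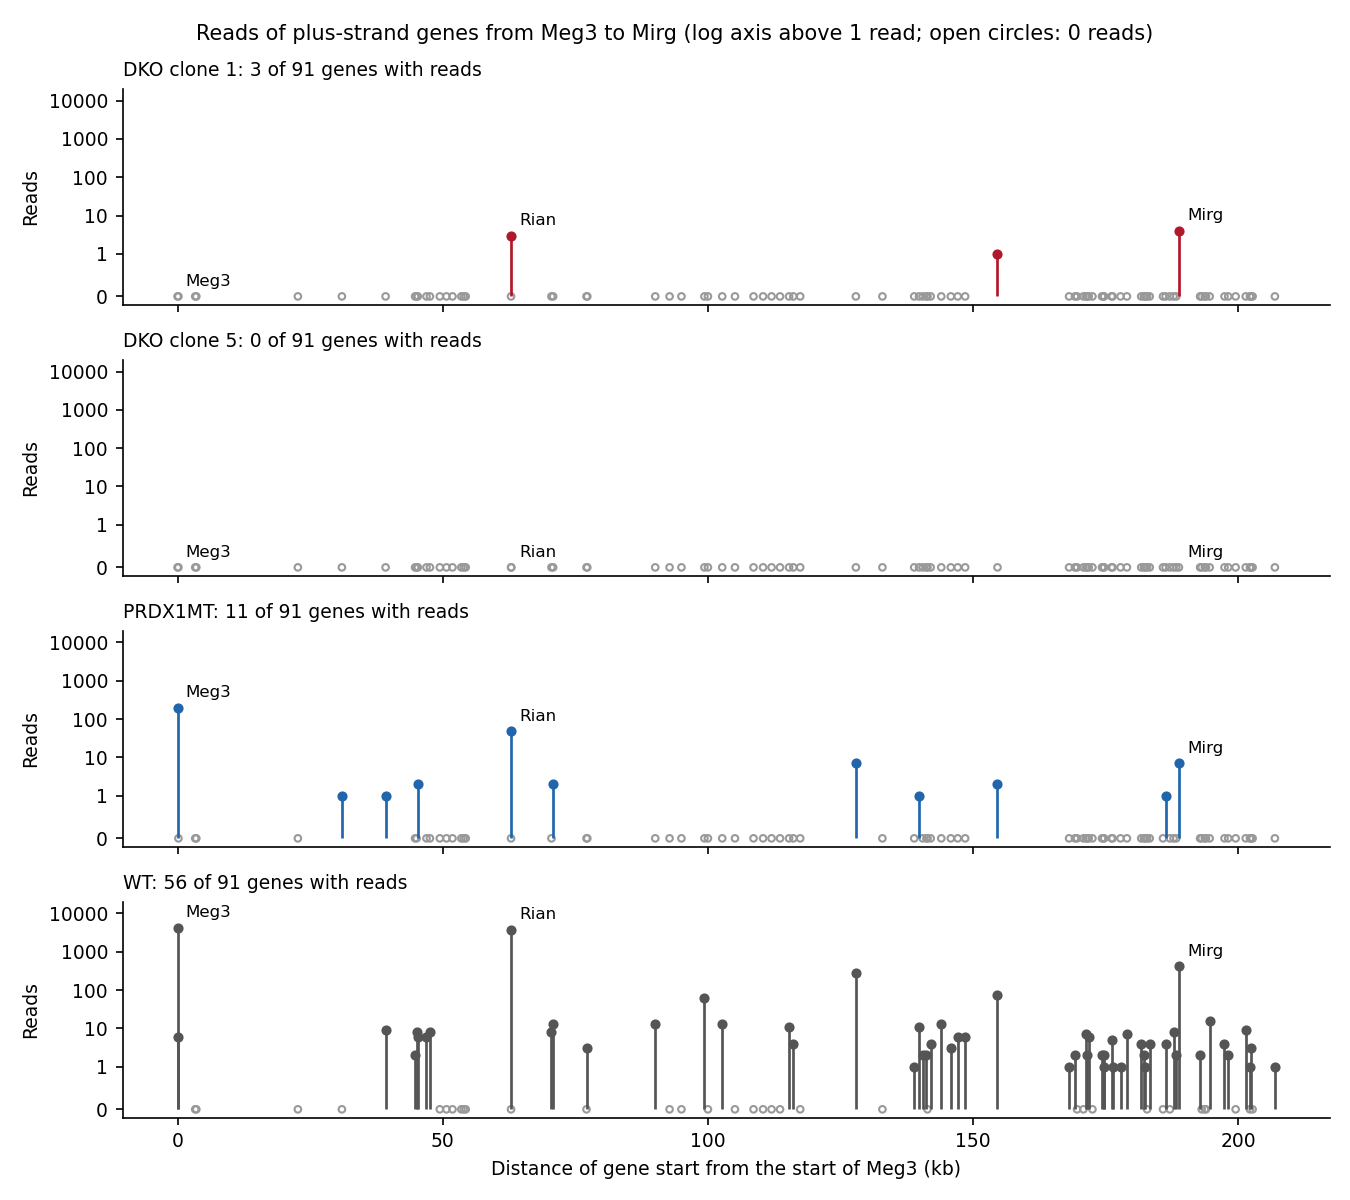
Reads of the 91 plus-strand genes from Meg3 to Mirg by distance of the gene start from the start of Meg3, in kb, with 1 panel per library, a log axis above 1 read and open circles for genes with 0 reads. Genes with reads number 3 in DKO clone 1, 0 in clone 5, 11 in PRDX1MT and 56, along the whole chain, in WT.

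The stretch from Meg3 to the end of Mirg holds 92 annotated small RNA genes, of which 66 are miRNAs and 23 are snoRNAs. Of these, 0 had a read in DKO clone 1, 0 in clone 5, 6 in PRDX1MT (8 reads) and 52 in WT (260 reads). Libraries of this kind do not capture mature miRNAs, so the reads at miRNA genes come from longer RNA that covers them. The source of the reads at the snoRNA genes (87 in WT) and at the remaining small RNA genes was not tested. No read was counted, in any of the 4 libraries, for the 6 miRNA genes that lie opposite exons of Rtl1. Of 42 small RNA genes that overlap an exon of another gene, 7 had reads in WT (11 reads), against 45 of the 50 that overlap none (249 reads), so a 0 at an overlapped gene is not a measure of its level.

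Opposite exons of Rtl1 lie 11 mature miRNAs from 6 hairpins, and 1 of each hairpin is shown, to keep the list short, with the seed, bases 2 to 8, in capitals. They are shown because they pair perfectly with Rtl1 RNA as its antisense and because the counts cannot see them. They are followed by the miRNA whose gene had the most reads in WT, Mir453 with 16, and by the other miRNA from Meg3 to Mirg that shares its seed. Sequences are RefSeq's, on the plus strand of GRCm38.p6.

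miR-431-3p: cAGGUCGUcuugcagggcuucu
miR-433-3p: aUCAUGAUgggcuccucggugu
miR-127-3p: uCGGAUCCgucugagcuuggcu
miR-434-3p: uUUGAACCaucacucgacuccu
miR-432: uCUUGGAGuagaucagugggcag
miR-136-5p: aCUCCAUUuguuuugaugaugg
miR-453: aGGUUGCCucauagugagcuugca
miR-496a-5p: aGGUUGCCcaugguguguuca

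Each of the 11 miRNAs opposite Rtl1 has a seed that no other mature miRNA from Meg3 to the end of Mirg shares. The RefSeq table held 57 miRNA hairpins and 111 mature names in that stretch, with 102 seeds, of which 9 are shared. Mir453 had 0 reads in both DKO clones, 0 in PRDX1MT and 16 in WT, and Mir496a had 0, 0, 0 and 2. Both genes lie in introns of Mirg.

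No gene at either edge of the domain was called in DKO by edgeR. Dio3, which encodes the deiodinase that inactivates thyroid hormone, and its partner Dio3os had 0 reads in all 4 libraries, where 3 counts would be 0.0729 to 0.121 CPM, so a change at the far end was not detectable. Between Mirg and Dio3, across 529.6 kb, 14 genes held 14 reads in clone 1 and 24 in clone 5 of DKO, 49 in PRDX1MT and 42 in WT. Gm3379, a processed pseudogene, held 11, 11, 37 and 21 of these. Begain, the nearest protein-coding gene before Dlk1, which encodes a protein of synapses, had 27 reads (0.757 CPM) in clone 1, 11 reads (0.399 CPM) in clone 5, 119 reads (4.78 CPM) in PRDX1MT and 68 reads (1.65 CPM) in WT. Its log2 ratio in DKO was -1.50 to WT (SE 0.77, adjusted p = 1.00 by edgeR) and -3.03 to PRDX1MT (SE 0.77, adjusted p = 0.389 by edgeR). Pooled over the clones, Begain was 7.96-fold lower than in PRDX1MT (5.48 to 11.8). Its ratio of PRDX1MT to WT was 2.90 (2.13 to 3.96), which meets the size rule as higher, the opposite direction to the domain genes.

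The flanks were read as a reference for the domain. They hold 49 protein-coding genes not known to be imprinted within 2 Mb of the span from Dlk1 to Dio3, of which 46 passed the filter. Their median log2 difference from WT was 0.15 in DKO clone 1, 0.20 in clone 5 and 0.21 in PRDX1MT, beside medians over all genes tested of -0.04, -0.02 and -0.01. With total-count scaling, which moved the all-gene median by -0.09, -0.14 and -0.27, the flank medians were 0.06, 0.06 and -0.06. By the size rule, 3 of 40 flanking genes were lower in clone 1 and 2 higher, 5 of 39 lower and 2 higher in clone 5, and 1 of 39 lower and 4 higher in PRDX1MT. In clone 1, 7.56% of all genes were lower and 8.40% higher, in clone 5 8.58% and 5.69%, and in PRDX1MT 7.57% and 7.26%.

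None of the 6 nearest flanking genes, 3 on each side and beyond Begain, passed in DKO against WT, and the smallest of their unadjusted p-values was 0.501 by edgeR. Wars, the tryptophanyl-tRNA synthetase gene, was at 50.2 and 79.3 CPM in clones 1 and 5, 57.9 CPM in PRDX1MT and 72.1 CPM in WT. On the far side, Ppp2r5c, a regulatory subunit of protein phosphatase 2A, was at 92.0, 102.4, 87.7 and 79.6 CPM, and Dync1h1, the dynein heavy chain, at 1039, 997, 1099 and 1016 CPM in the same order. Slc25a47, Wdr25 and 1700001K19Rik, with 46 to 256 reads a library, had an adjusted p of 1.00 in DKO against WT by edgeR. Tnfaip2 had the largest rise in DKO as a log2 ratio, 1.32 (SE 0.75), but with 188 and 54.3 CPM in the clones, 91.2 CPM in PRDX1MT and 48.3 CPM in WT it had an adjusted p of 1.00 by edgeR.

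Of the 46 flanking genes tested, 1 passed the edgeR test as lower in DKO, beside 0.453% of all genes against WT and 0.195% against PRDX1MT. Bcl11b (chr12:107910403-108003602), a zinc-finger transcription factor whose gene ends 1.45 Mb before Dlk1, had 1 read in each DKO clone, 338 reads (13.6 CPM, 12.2 to 15.1) in PRDX1MT and 105 reads (2.55 CPM, 2.09 to 3.09) in WT. Its log2 ratio in DKO was -6.16 to WT (SE 0.83, adjusted p = 0.0321 by edgeR) and -8.58 to PRDX1MT (SE 0.84, adjusted p = 0.0265 by edgeR). Unlike Meg3, Rian and Mirg, Bcl11b was higher in PRDX1MT than in WT. Like Meg3 and Rian, Bcl11b passed the filter on low counts through WT and PRDX1MT alone, the libraries in which it was high. Kif26a, a gene of the kinesin family on the far flank, had 11 and 5 reads (0.308 and 0.182 CPM) in the clones, 59 reads (2.37 CPM) in PRDX1MT and 132 reads (3.21 CPM) in WT. Kif26a also passed the filter through WT and PRDX1MT alone. It was lower by the size rule in both clones, but its log2 ratio to WT of -3.67 (SE 0.80) had an adjusted p of 0.179 by edgeR. No flanking gene passed as higher in either comparison, by edgeR or DESeq2, and none had an unadjusted p under 0.05 in that direction.

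**Figure D4:**
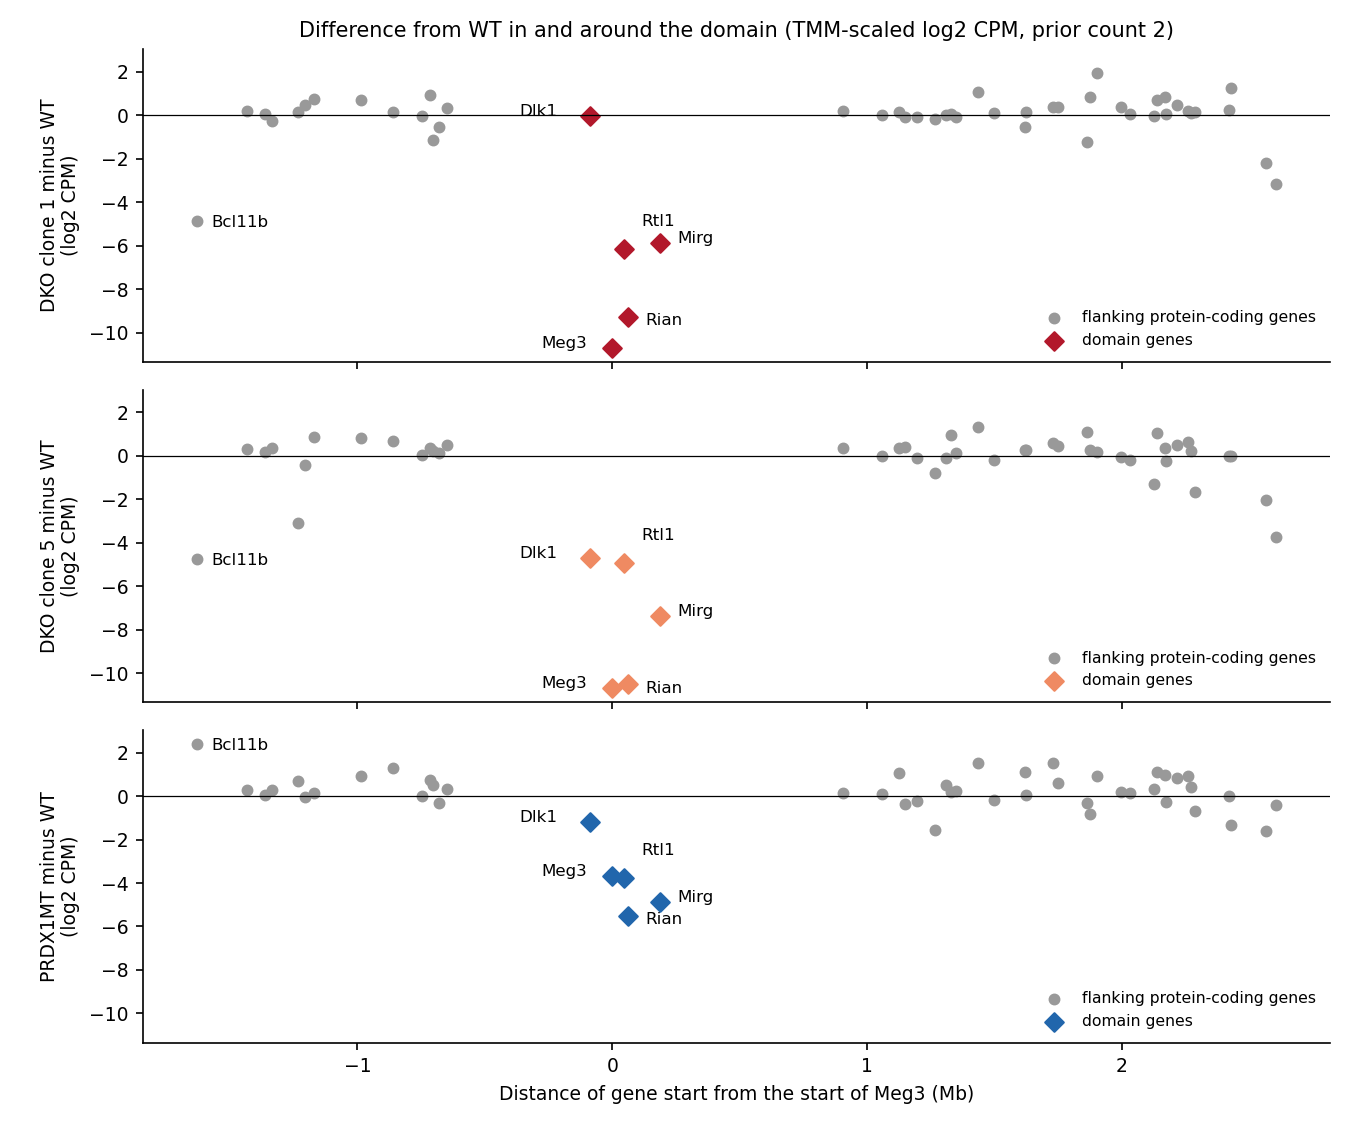
Difference from WT in TMM-scaled log2 CPM (prior count 2) for the 5 domain genes (diamonds) and 46 flanking protein-coding genes (grey points), by distance of the lower gene coordinate from the start of Meg3 in Mb, with 1 panel each for DKO clone 1, DKO clone 5 and PRDX1MT. Most flanking genes lie near 0, with medians of 0.15, 0.20 and 0.21, while Meg3, Rtl1, Rian and Mirg lie at or below -3.67 in every panel and Dlk1 at -0.01, -4.71 and -1.20.

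None of the tested genes that set or keep imprints passed the test in DKO. The list held 21 genes of DNA methylation, its removal, ZFP57-guided repression and Polycomb, of which 19 were tested. It includes Dnmt3a and Dnmt3b, whose counts do not show whether an edited transcript is functional. By edgeR 0 were lower and 0 higher in DKO than in WT, with 1 at an unadjusted p under 0.05 and 0 by DESeq2, at a median log2 ratio of -0.12 beside 0.03 over all genes. Against PRDX1MT the counts were also 0 and 0, again with 1 at an unadjusted p under 0.05 and 0 by DESeq2. Tet1, an enzyme that oxidises methylated cytosine, had the smallest p against WT, at 10.1 and 6.32 CPM in the clones, 15.5 CPM in PRDX1MT and 28.6 CPM in WT (log2 ratio -1.80, adjusted p = 0.449 by edgeR). Uhrf1, which brings the maintenance methyltransferase to replicated DNA, was at 90.5 and 368 CPM in the clones, 144 CPM in PRDX1MT and 98.6 CPM in WT, and Suz12, a Polycomb subunit, was at 32.9, 39.4, 36.2 and 56.8 CPM in the same order.

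Zfp57 itself, named for its motif in the Meg3 window, was at 14.0 and 9.001 CPM in the clones, 21.2 CPM in PRDX1MT and 12.5 CPM in WT, and Dppa3 had 0 reads in all 4 libraries. In PRDX1MT against WT, 1 of 19 genes of the list passed the size rule as lower and 0 as higher, beside 7.57% and 7.26% of all genes. It was Aff3, at 253 and 51.7 CPM in DKO clones 1 and 5, 36.4 CPM in PRDX1MT and 123 CPM in WT.

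The partners and fat-cell targets of Dlk1 were read next. Of 21 genes (Notch receptors and ligands, their target genes, Dlk2, and factors of early fat-cell formation), 20 were tested, and 0 were lower and 0 higher in DKO than in WT by edgeR, with 2 lower and 3 higher at an unadjusted p under 0.05 and 0 by DESeq2. The median log2 ratio was 0.50, beside 0.03 over all genes. Notch3, a Notch receptor, was at 17.0 and 16.2 CPM in the clones, 95.5 CPM in PRDX1MT and 57.4 CPM in WT (log2 ratio -1.79 to WT, SE 0.42, adjusted p = 0.231 by edgeR). Jag1, a Notch ligand, was at 284 and 538 CPM in the clones, 345 CPM in PRDX1MT and 95.8 CPM in WT (log2 ratio 2.10, adjusted p = 0.499 by edgeR). Hey1, a Notch target, was at 11.6 and 7.88 CPM in the clones, 50.4 CPM in PRDX1MT and 2.28 CPM in WT (log2 ratio 2.09, adjusted p = 0.378 by edgeR).

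In all 3 edited libraries Jag1 and Hey1 were above WT. Against PRDX1MT, 0 of the 20 passed by edgeR in either direction, with 4 lower and 2 higher at an unadjusted p under 0.05, while DESeq2 called Notch3, Hey1 and Cebpa, a fat-cell factor, lower in DKO. In PRDX1MT against WT, 1 of 16 genes passed the size rule as lower and 5 as higher, beside 7.57% and 7.26% of all genes.

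The genes whose pattern over the libraries was most like that of a member were found among 14472 genes with at least 100 reads, by the Euclidean distance over the 3 log2 differences from WT. The 5 nearest to Dlk1 were Spata13 (0.54), Maf (0.62), Fbln7 (0.69), Sntb1 (0.73) and Saysd1 (0.99), none of them on chromosome 12. Like Dlk1, these had few reads in clone 5, with 1 to 8 there, which follows from the choice because the distance includes that library. Spata13 had 334 reads in clone 1, 8 in clone 5, 68 in PRDX1MT and 297 in WT.

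Nearest to Meg3 was Rian, at a distance of 2.33, ahead of Cytl1 (2.92), Cd24a (3.60), 5730409E04Rik (4.47) and Ccser1 (4.91), none of which is on chromosome 12. By distance from Meg3, Mirg had rank 28, Rtl1 rank 61 and Dlk1 rank 361. Cytl1 had 1 read in clone 1, 0 in clone 5, 25 in PRDX1MT and 1478 in WT, and Cd24a had 0, 0, 32 and 721. The distance covers 4 libraries only and depends on the added count where reads are 0.

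**Figure D5:**
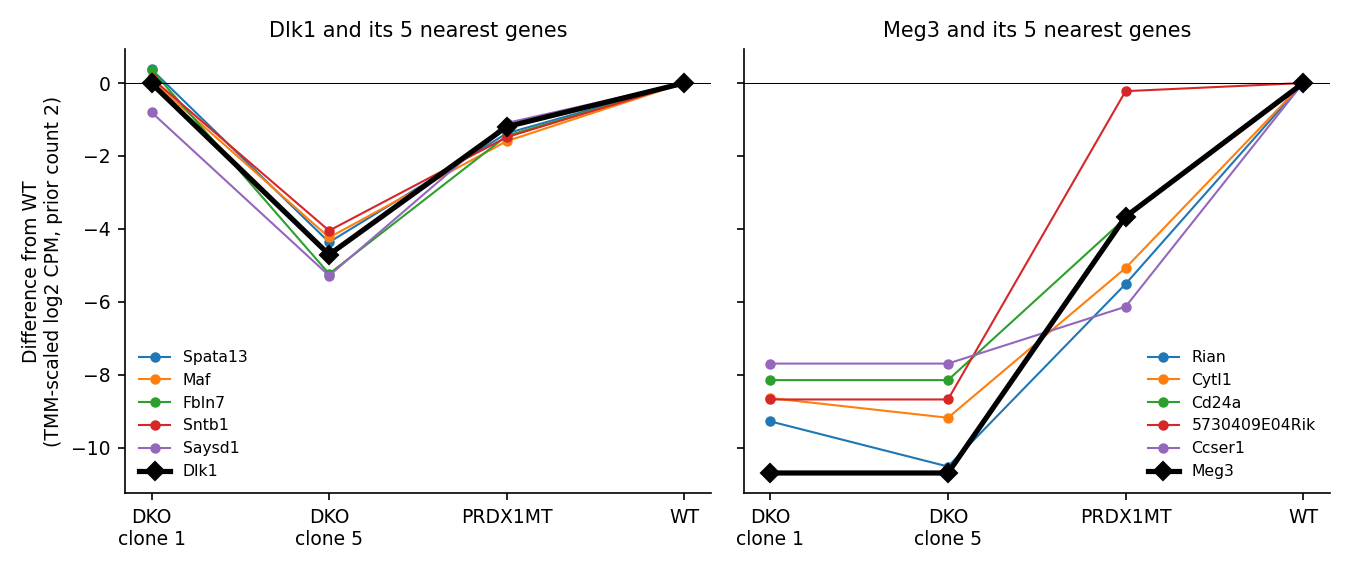
Difference from WT in TMM-scaled log2 CPM (prior count 2) in DKO clone 1, DKO clone 5 and PRDX1MT, with WT at 0, for Dlk1 and Meg3 (black) and the 5 genes nearest to each by Euclidean distance. The genes were picked by these same differences, so their likeness follows from the choice. The genes near Dlk1 are low in clone 5 and not in clone 1, apart from Saysd1 at -0.80 there, and the genes near Meg3 are low in both clones, with 5730409E04Rik at -0.22 in PRDX1MT.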

How the data were processed

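RNA was measured in 4 libraries of total RNA made with a stranded kit after ribosomal RNA removal, per the labels' protocols. The authors deposited 1 file of raw counts per gene for each library. Per the submitters' processing notes, the aligner was STAR 2.6.1d and the build mm10. Which program counted the reads, with what annotation and use of strand, is not given in the sources used here. Of 54532 gene identifiers, 54495 were matched to GENCODE M21 for symbols and coordinates.

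Groups came from the labels: DKO (2 clones), PRDX1MT (1 library) and WT (1 library). The counts were fitted in R 4.3.3 with edgeR 4.0.16 (quasi-likelihood, TMM, filterByExpr, 3 groups in 1 fit) over 19446 genes, at a Benjamini-Hochberg adjusted p under 0.05. Its common dispersion was 0.187, with 1 residual and 6.54 prior degrees of freedom, and single libraries are taken to vary like the clones. The SE of a log2 ratio is its size divided by the square root of the F statistic. The test was tried on simulated counts, but the outcome is not given here and no result above rests on it. Single libraries were compared by the size rule and by exact intervals (Poisson for levels, conditional binomial for ratios, at 95%). Pooled DKO folds divide summed reads by summed library sizes, and a group at 0 was set at 3 counts.

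The alternatives were DESeq2 1.42.0, other scalings, low-count filters, read minimums, added counts and flank windows, a fit on only the groups compared, leaving out each clone, and joining WT with PRDX1MT. Removal of Gm26917, a very abundant non-coding RNA, was chosen after seeing the data.

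Named genes were the 5 members, every other gene of the domain with at least 20 reads in a library, Dio3, Begain, the 3 nearest tested flanking genes on each side and the largest rise and fall there, the called genes of each list or otherwise up to 3 with the smallest p, and the 5 nearest patterns to Dlk1 and to Meg3. Zfp57, Dppa3, Aff3, Dio3os, Kif26a, Cebpa, Mir453, Mir496a, Usp29, Peg10 and Plagl1 were chosen after their values were seen. The members and lists were chosen with earlier results of these data known.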

Additional observations from a re-analysis of the deposited data

How the results depend on the processing

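No paired analysis was possible because PRDX1MT and WT had 1 library each, so the groups compared share fewer than 2 replicate numbers. Of the 5 domain genes, 3 were called in DKO against WT, Mirg among them after entering the fit through WT alone. The number called was 0 with a filter of 1 CPM in 2 libraries (edgeR, 2 at an unadjusted p under 0.05) and 0 with WT and PRDX1MT joined (3 at an unadjusted p under 0.05). Leaving out a clone, which needed WT and PRDX1MT joined, gave 0 to 0. Other settings gave 2 to 4: Mirg was lost with median-of-ratios scaling, total-count scaling and Gm26917 removed (adjusted p 0.0560 to 0.0621), and Rtl1 was gained with DESeq2 (adjusted p = 2.58e-04), no filter and only the groups compared. Over all genes, the 88 called lower became 202 with DESeq2, 405 with no filter, 0 with 1 CPM in 2 libraries (490 in either direction at an unadjusted p under 0.05), 35 with WT and PRDX1MT joined, and 17 to 55 with a clone left out.

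Against PRDX1MT the 1 domain gene called became 2 with DESeq2 and 2 with no filter (Rian added), and 0 with 1 CPM in 2 libraries, only the groups compared, WT and PRDX1MT joined, or a clone left out (0 to 0), with at least 2 at an unadjusted p under 0.05 by edgeR in each. Over all genes, the 38 called lower became 153 with DESeq2, 13 with median-of-ratios scaling, 7 with total-count scaling, 267 with no filter, 0 with 1 CPM in 2 libraries (530 in either direction at an unadjusted p under 0.05), 11 with only the groups compared, and 17 to 55 with a clone left out. The causes were not tested, except that the filter of 1 CPM in 2 libraries leaves 3 of the 5 genes to test.

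The log2 ratio of Dlk1 reversed in DKO against WT to 0.50 without clone 5 and WT and PRDX1MT joined. In DKO against PRDX1MT, where it was 0.28, it reversed to -0.50 with these joined and to -8.12 with these joined and clone 1 left out. The mean log2 CPM difference of Dlk1 from PRDX1MT alone, which has no test, was -1.16, of the other sign than that ratio, and was -3.51 without clone 1 and 1.19 without clone 5. The log2 ratios of Meg3, Rian, Mirg and Rtl1 kept their sign under every alternative in which they could be fitted. In PRDX1MT, 2 domain genes passed the size rule with at least 500 reads and 5 with at least 20 (Dlk1 added), in place of 4. In DKO clone 5 against clone 1, 1 passed (Dlk1) with at least 20 reads, in place of 0. The flank median moved in PRDX1MT to 0.35 within 5 Mb and -0.063 with total-count scaling, in DKO clone 1 to 0.058 within 1 Mb and 0.057 with total-count scaling, and in DKO clone 5 to 0.27 within 1 Mb and 0.065 with total-count scaling. Depth limits the ratios of genes with few reads, which are known only within the counting intervals given.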

Other observations

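Imprinted genes outside the domain were read in the same way. Of 23 paternally expressed genes listed, 17 were tested, and 2 fell in DKO against WT and 0 rose by edgeR. The median log2 ratio was -0.38 beside 0.03 over all genes, with 6 lower and 0 higher at an unadjusted p under 0.05. Of the 2, Peg3, a zinc-finger gene, had 0 reads in both clones, 4 in PRDX1MT and 6876 in WT. Peg3 entered the fit through WT alone, so its call is a description, as for Mirg, and is not set against all genes. The other was Mest, an enzyme-like protein of mesoderm, with 82 and 33 reads in the clones, 34 in PRDX1MT and 9875 in WT. Mest was called beside 0.453% of all genes called lower and 0.0154% called higher. DESeq2 added Peg10 (8, 117, 707 and 2352 reads in clone 1, clone 5, PRDX1MT and WT) and Plagl1 (20, 8, 53 and 317 reads). Against PRDX1MT 0 passed by edgeR in either direction, with 4 at an unadjusted p under 0.05 and 1 (Peg10) by DESeq2. In PRDX1MT against WT, 5 of 16 passed the size rule as lower and 2 as higher, beside 7.57% and 7.26% of all genes.

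Of 21 maternally expressed genes elsewhere, 12 were tested, and 0 passed in DKO against WT by edgeR or DESeq2, with 1 lower and 1 higher at an unadjusted p under 0.05, at a median log2 ratio of 0.30. Against PRDX1MT 0 passed by edgeR or DESeq2 and 0 had an unadjusted p under 0.05. In PRDX1MT, 1 of 10 passed the size rule as lower and 2 as higher, beside 7.57% and 7.26% of all genes. Zim1, a zinc-finger gene, had 73 reads in WT and 0 in the other 3 libraries, as did its chromosome 7 neighbour Usp29 with 54 in WT. Grb10, a growth restrainer, was at 338 and 427 CPM in the clones, 382 CPM in PRDX1MT and 756 CPM in WT, and Gnas, a G-protein subunit, at 52.5, 51.7, 76.5 and 22.4 CPM in the same order.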
